A study of Homo sapiens with 24 samples.

Results

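The integrated stress response was followed through 38 genes, ATF4 with its target genes, in Panc-1 cells in which a pancreatic bHLH factor could be switched on. The genes were taken by symbol from a list of pathway members, which was drawn up with earlier results of these data known. No measured value enters the rule itself. All 38 were listed in the count table of every line, which held 13879 genes for Tet-One, 13879 for Tet-MIST1 and 14053 for Tet-PTF1a. By role they were 13 regulators and effectors, 10 amino acid synthesis genes, 4 amino acid transporters, 9 genes of tRNA synthetases and tRNA export, and 2 genes of secreted or surface proteins. Panc-1 cells derive from a human ductal carcinoma of the pancreas and have long been used as a cell line, and polyA RNA of each library was sequenced. Tet-One cells carried the empty inducible plasmid, Tet-MIST1 cells the rat MIST1 reading frame and Tet-PTF1a cells the mouse PTF1a reading frame, both myc-tagged. In each line 4 libraries came from cells without doxycycline (Control) and 4 from cells given 1 µg/ml doxycycline for 72 h (Dox), at passage 32 (Tet-One and Tet-PTF1a) or 33 (Tet-MIST1). All groups shared the plasmid backbone, selection in puromycin and a medium with tetracycline-depleted serum. Each line was an individual clone, so that a difference between lines cannot be told apart from a difference between clones. The Dox group of the empty line carries the drug without the factor, and doxycycline itself, an inhibitor of mitochondrial translation, is known to be able to start this response.

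In the integrated stress response, kinases that sense unfolded protein, missing amino acids, double-stranded RNA or heme deficiency phosphorylate the initiation factor eIF2. General translation then falls, while the mRNA of the transcription factor ATF4 is translated more efficiently. ATF4 acts with C/EBP partners at short elements near its target genes, which make and import amino acids, charge tRNAs, and adjust or end the response. Acinar cells of the pancreas make large amounts of secreted protein and are known to depend on this and related pathways.

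The element that ATF4 and C/EBP proteins share is shown first, since it links members of different roles. RefSeq promoters (250 bases before to 50 after the start, build GRCh38.p14) were matched for 30 of the 38 members. The letters TGATGNAA, searched on both strands, were found in 9 of the 30 (30%) and in 1003 of all 27305 promoters of that length (3.67%). The stricter form TGATGCAA, which the wider search includes, was found in 5 of the 30 (16.67%) and in 0.92% of all promoters. By role the wider form was in 4 of 7 promoters of tRNA synthetases and export, 2 of 4 of transporters, 2 of 11 of regulators, 1 of 6 of amino acid synthesis and 0 of 2 of secreted or surface proteins. The E box CAGCTG, a form that bHLH factors can bind, was in 5 of the 30 (16.67%) and in 17.74% of all promoters. The 9 windows are given 5′ to 3′ on the strand of the gene, with the match in capitals. In CHAC1, SLC3A2, AARS, MARS and CARS the motif lies on the opposite strand, so that the capitals are its reverse complement.
ATF3: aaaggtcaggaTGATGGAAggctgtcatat
CHAC1: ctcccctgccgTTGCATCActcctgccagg
ASNS: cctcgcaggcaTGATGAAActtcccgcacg
SLC3A2: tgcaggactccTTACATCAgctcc
SLC7A1: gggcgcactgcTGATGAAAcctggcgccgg
AARS: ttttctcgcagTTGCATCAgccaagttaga
NARS: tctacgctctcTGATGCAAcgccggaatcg
MARS: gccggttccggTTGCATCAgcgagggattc
CARS: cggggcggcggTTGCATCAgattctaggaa

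Positions are counted from the listed start, the start itself being position 1 and the base before it -1. The first base of the match was at -191 in ATF3 (chr1:212565216-212565223, + strand), at -209 in CHAC1 (chr15:40953262-40953269, + strand) and at -68 in ASNS (chr7:97872469-97872476, - strand). In the transporters it was at 38 in SLC3A2 (chr11:62881736-62881743, + strand) and at 8 in SLC7A1 (chr13:29595674-29595681, - strand). In the synthetases it was at -187 in AARS (chr16:70289686-70289693, - strand), 15 in NARS (chr18:57621815-57621822, - strand), -4 in MARS (chr12:57488064-57488071, + strand) and -2 in CARS (chr11:3057418-3057425, - strand). AARS, NARS, MARS and CARS charge tRNAs with alanine, asparagine, methionine and cysteine, and all 4 held the strict form. The 8 members without a matched promoter were NUPR1, EIF4EBP1, PSPH, SHMT2, ALDH1L2, PYCR1, GARS and SARS. A match is a description of the letters in this window, and no binding was measured. The list was made of ATF4 and its targets, so a share above that of all promoters is not a separate result.

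The libraries held 17210989 to 43018494 counted reads, and every member passed the filter on low counts in every line. Of 7 ductal and epithelial genes all were listed in each line, and of 10 leukocyte, endothelial and fibroblast genes the tables of Tet-One and Tet-MIST1 listed 2 each, CD68 and COL1A1, and that of Tet-PTF1a 3, with COL3A1. PTPRC, CD3E, LYZ, PECAM1, VWF, CDH5 and DCN were not listed in any table. The human PTF1A locus had 0 to 2 counts in Tet-PTF1a Control and 53 to 168 in Tet-PTF1a Dox and was not listed in the other tables. The human MIST1 locus, BHLHA15, was not listed in Tet-One or Tet-MIST1. In Tet-PTF1a it had 2 to 16 counts in Control and 12 to 22 in Dox. The reading frames were from mouse and rat, so these human loci are a limited check of the labels. Dox replicate 1 of Tet-One stood apart from its group, with an SD over genes of 0.591 on the log2 scale against the mean of the other 3 libraries, where the other Tet-One Dox libraries had 0.228 to 0.251. The counts of called members and the median member change in Tet-One are given below with and without it, and so are the changes of several genes. To a lesser degree Dox 1 of Tet-MIST1 also stood apart, at 0.248, where the other Tet-MIST1 Dox libraries had 0.146 to 0.193.

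Levels were compared between genes as RPKM, which scales reads by listed exon length and library size, over the 12 Control libraries. The highest medians were those of SLC38A2, a neutral amino acid transporter, at 172 RPKM, of the glycyl-tRNA synthetase GARS at 162 and of ATF4 at 124. They were followed by the mitochondrial folate enzyme MTHFD2 at 121, by DDIT4, an inhibitor of mTORC1 signaling, at 110 and by MARS at 101. This order was not that of each line: the mean of SLC38A2 in Tet-One Control was 173 RPKM, below DDIT4 at 280, ATF4 at 256, GARS at 252 and MTHFD2 at 182, and in Tet-MIST1 Control it was 125, below GARS at 158. The lowest medians were those of the mitochondrial folate enzyme ALDH1L2 at 1.83 RPKM, VLDLR at 2.20, the AP-1 family repressor JDP2 at 2.96 and ATF3 at 3.90. In ATF4 the level was 256 ± 36.5 RPKM (SD, n = 4) in Tet-One Control, 91.3 ± 6.5 in Tet-MIST1 Control and 134 ± 21.7 in Tet-PTF1a Control. For ATF4 the 3 lines therefore did not start from the same level, and Tet-One stood highest. This was not so for every member: NUPR1 was lowest in Tet-One Control, at 9.59 RPKM, against 14.5 in Tet-MIST1 Control and 15.6 in Tet-PTF1a Control. The ratio of the highest to the lowest Control library was 8.58 for PCK2, the mitochondrial phosphoenolpyruvate carboxykinase, 5.96 for SLC7A1, a transporter of cationic amino acids, and 5.78 for VLDLR. It was 1.23 for ALDH18A1, which starts proline synthesis, 1.29 for the glutamyl-prolyl-tRNA synthetase EPRS and 1.29 for PSPH, the last enzyme of serine synthesis.

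Within the Control groups of Tet-PTF1a and Tet-One, members of every role were higher in 1 library than in the rest. In Tet-PTF1a, Control 1 was above the mean of the other 3 Control libraries in 37 of the 38 members, with a median difference of 0.43 on the log2 scale, and it was the highest of the 4 libraries in 37 members, against 24.5% of all genes. Of all 14053 genes, 49.6% lay above the mean of the other 3 in that library. The differences were 0.91 for PCK2, 0.87 for ATF3, 0.84 for TRIB3, 0.82 for SESN2 and 0.79 for ASNS. In Tet-One, Control 1 was above the mean of the other 3 in 37 of 38 members (median 0.36) and the highest of 4 in 36, against 27.1% of all genes. Control 3 of Tet-One was above in 33 members (median 0.11), and Controls 2 and 4 were above in 1 member each (medians -0.26 and -0.20). ALDH18A1 was the exception in both Control 1 libraries, at -0.05 in Tet-PTF1a and -0.02 in Tet-One. In the Tet-MIST1 Control libraries the medians ran only from -0.05 to 0.06.

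**Figure D1:**
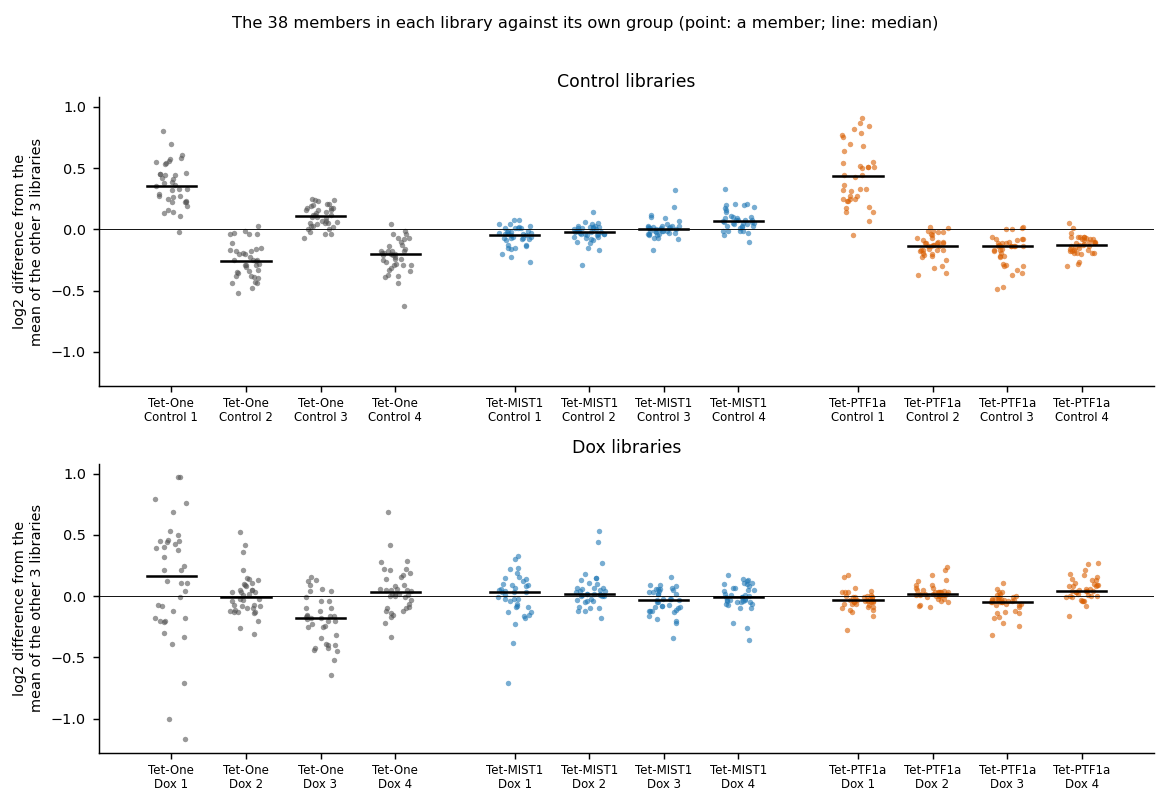
Log2 difference of each of the 38 members (points) from the mean of the other 3 libraries of its group, for the 12 Control libraries (top) and the 12 Dox libraries (bottom), with the median as a line. Control 1 of Tet-PTF1a and Control 1 of Tet-One lie above the other Control libraries, with medians of 0.43 and 0.36, while Dox 1 of Tet-One has the widest scatter of members.

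In both Control 1 libraries the median difference was above 0 for every role group and for other ATF4 targets, and near 0 for neighbouring genes of the pathway. In Tet-PTF1a Control 1 the median difference was 0.55 for regulators, 0.53 for amino acid synthesis, 0.34 for transport and 0.31 for tRNA synthetases and export, and in Tet-One Control 1 it was 0.44, 0.48, 0.24 and 0.36. Of 18 other ATF4 targets, fixed as a separate list, 18 were above in Tet-PTF1a Control 1 (median 0.43) and 16 in Tet-One Control 1 (median 0.33). The highest of them were the cystine transporter gene SLC7A11 at 1.25 in Tet-PTF1a and the cysteine synthesis gene CTH at 0.79 in Tet-One. The 15 other cytosolic synthetase genes had medians of 0.00 and -0.01, the 17 mitochondrial synthetase genes 0.00 and 0.01, the 8 subunits of eIF2 and eIF2B -0.03 and 0.00, and the 9 listed eIF2 kinases and relays 0.03 and 0.06. The 38 members took up 0.7237% of all counts in Tet-PTF1a Control 1 and 0.557 to 0.5719% in the other 3 Control libraries. Tet-PTF1a Control 1 was also the deepest library, at 43018494 counts, while in Control 4, with 38578342, the median member lay at -0.13. The part of depth, or of how the cultures were handled, in this difference was not tested.

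In Tet-One cells, Dox alone raised no member past the threshold. With the quasi-likelihood test of edgeR and a false discovery rate (FDR) under 0.05 over all genes, 0 of 38 members were called, against 0% of all 13428 genes tested, and DESeq2 also called 0. At an unadjusted p under 0.05 there were 5 of 38 members and 401 of all 13428 genes. The fitted change was below 0 in 36 of 38 members, with a median of -0.21 on the log2 scale, where the median of all genes was 0.00. Without Dox 1 it was below 0 in 37 of 38 (median -0.27), and 0 members were called, against 0.00746% of all genes. Then 12 members, all lower, had an unadjusted p under 0.05, against 12.2% of all genes. Without Control 1 instead, 32 of 38 were below 0 and the median was -0.11. With Control 1 and Dox 1 both left out, 36 were below 0 and the median was -0.14. In that fit 14 of 38 members, all lower, had an unadjusted p under 0.05, against 1231 of all 13373 genes. Of the members 0 were called, against 0.0598% of all genes (0.00748% lower). No role group was above 0 in the median in any of these fits.

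Of the key regulators and targets, none passed the threshold in Tet-One. The level of ATF4 was 586, 426, 519 and 464 CPM in Control 1 to 4 and 648, 423, 369 and 418 CPM in Dox 1 to 4 (CPM, counts scaled to library size after TMM). The Dox 1 library was the highest of all 8, and the other 3 Dox libraries were below every Control library. The log2 fold change of ATF4 was -0.10 ± 0.18 (SE, FDR 0.897), and -0.31 ± 0.11 without Dox 1 (FDR 0.364). DDIT3 (CHOP), a pro-apoptotic transcription factor, had 97.1, 63.0, 81.9 and 69.2 CPM in Control and 95.4, 57.3, 50.9 and 58.1 CPM in Dox. It followed the same order, with Dox 1 just under the highest Control library and the other 3 below all Control libraries, and changed by -0.25 ± 0.21 (FDR 0.897), or -0.49 ± 0.16 without Dox 1 (FDR 0.333). TRIB3, a pseudokinase that restrains ATF4 signaling, had 115, 76.8, 98.6 and 80.9 CPM in Control and 96.8, 80.6, 67 and 75.5 CPM in Dox. CHAC1, which degrades glutathione, had 60.9, 34.8, 51.8 and 39.2 CPM in Control and 47.5, 39.7, 29.6 and 35.2 CPM in Dox. The groups of both genes overlapped, with fitted changes of -0.21 ± 0.16 and -0.30 ± 0.20 (FDR 0.897 for both). ASNS, asparagine synthetase, had 442, 262, 370 and 267 CPM in Control and 361, 265, 250 and 276 CPM in Dox, also with overlap, and changed by -0.22 ± 0.19 (FDR 0.897).

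The groups did not overlap in 5 members of Tet-One, all with lower Dox libraries, against 1.06% of all genes with that order and 2.41% with either. They were ATF3, PPP1R15A, ALDH18A1, VLDLR and STC2. Without Dox 1 the groups did not overlap in 8 members, against 5% of all genes with lower Dox libraries and 11.1% with either order. ATF3, a stress-induced repressor and activator, had 18.8, 11.7, 16.7 and 13.0 CPM in Control and 9.02, 8.46, 7.74 and 10.3 CPM in Dox, a change of -0.76 ± 0.16 (unadjusted p = 0.00114 by edgeR, FDR 0.897). PPP1R15A (GADD34), which directs the dephosphorylation of eIF2, had 33.8, 31.4, 31.3 and 31.3 CPM in Control and 29.2, 28.1, 24.8 and 28.5 CPM in Dox, a change of -0.21 ± 0.073. VLDLR, a lipoprotein receptor, had 14.7, 12.0, 12.4 and 10.2 CPM against 8.48, 8.75, 8.32 and 9.87 CPM, and changed by -0.48 ± 0.12. For these genes the value of Dox 1 was among or close to those of the other Dox libraries, and the change was nearly the same without it, at -0.78 for ATF3, -0.24 for PPP1R15A and -0.46 for VLDLR (FDR 0.248, 0.141 and 0.161 by edgeR). STC2, a secreted glycoprotein, had 154, 134, 137 and 125 CPM against 98.9, 106, 95.9 and 121 CPM, and changed by -0.38 ± 0.098, or -0.36 without Dox 1 (FDR 0.237). None of them passed the threshold in any fit.

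Of the 12 members with an unadjusted p under 0.05 without Dox 1, 8 did not have it with all libraries: ATF4, DDIT3, DDIT4, NUPR1, PSPH, PYCR1, SLC3A2 and SHMT2. None of them passed the threshold. The 2 with the lowest p are given in full, and their groups overlapped also without Dox 1. SLC3A2, the heavy chain shared by several amino acid exchangers, had 197, 163, 183 and 172 CPM in Control and 229, 169, 154 and 156 CPM in Dox. Its change was -0.01 ± 0.14 with all libraries and -0.17 ± 0.057 without Dox 1 (FDR 0.281). SHMT2, the mitochondrial enzyme that takes a carbon unit from serine, had 149, 124, 126 and 126 CPM against 135, 124, 112 and 115 CPM, and changed by -0.11 ± 0.092, or -0.17 ± 0.063 without Dox 1 (FDR 0.321). Dox 1 itself differed by role. Against the other 3 Dox libraries, its regulators had a median difference of 0.46 and its amino acid transporters one of -0.50 on the log2 scale. It held 61.8 CPM of EIF4EBP1, a repressor of translation, where the other Dox libraries held 30.4 to 32.4, and 96 CPM of SLC7A1, where they held 175 to 201. EIF4EBP1 (0.22 ± 0.22) and CEBPB (0.24 ± 0.20), a C/EBP factor, were the 2 members above 0 with all libraries. Without Dox 1 they were at -0.10 and 0.00.

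**Figure D2:**
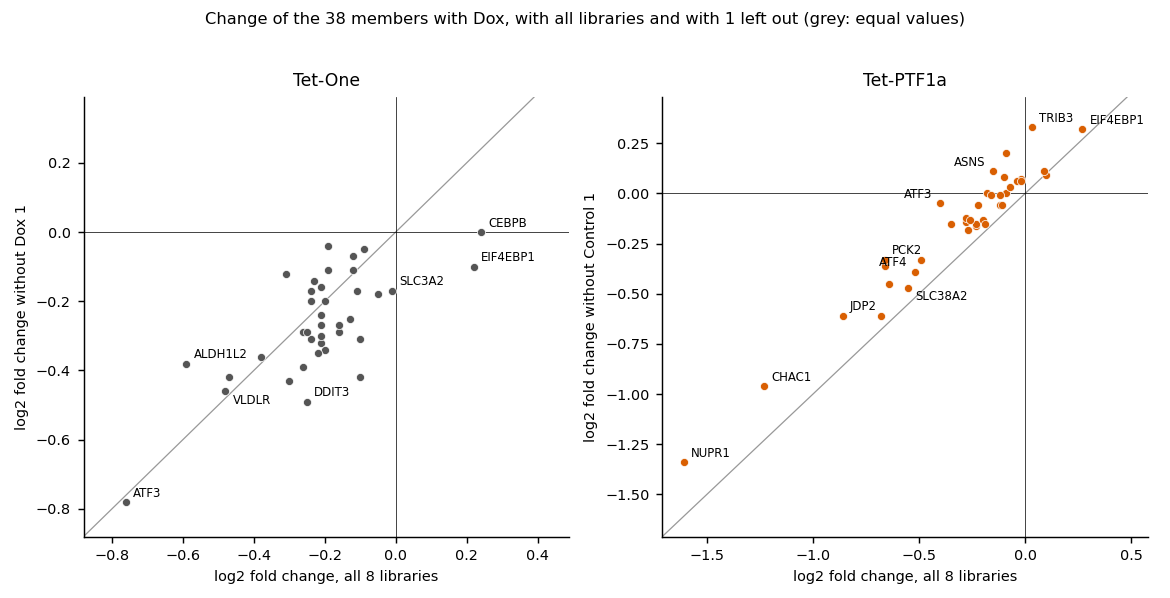
Log2 fold change with Dox of the 38 members in Tet-One (left) with all 8 libraries and without Dox 1, and in Tet-PTF1a (right) with all 8 libraries and without Control 1. In Tet-One 36 members lie below 0 with all libraries and 37 without Dox 1. In Tet-PTF1a the values without Control 1 are mostly nearer to 0, with a median of -0.09 against -0.21.

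In Tet-MIST1 cells a subset of members that included ALDH1L2, ATF3, NUPR1 and the proline synthesis genes was higher with Dox than without, while ATF4 itself was not called. Of these, ATF3, PYCR1 and ALDH18A1 were also shown to differ from the response of the empty line (given below). In Tet-MIST1, 9 of 38 members were called higher and 1 lower, against 11.9% and 8.77% of the 13623 genes tested. The fitted change was above 0 in 31 of 38 members, with a median of 0.08, where that of all genes was 0.00. The groups did not overlap in 14 members, 13 of them with higher Dox libraries. Over all genes these shares were 26.9% in either direction and 14.1% with higher Dox libraries. The called members were ATF3, DDIT4, NUPR1 and, lower, SESN2 among 13 regulators, ALDH1L2, ALDH18A1 and PYCR1 among 10 amino acid synthesis genes, SLC3A2 among 4 transporters, and MARS and EPRS among 9 genes of tRNA synthetases and export. Neither VLDLR nor STC2 was called. All 10 amino acid synthesis genes had fitted changes above 0, with a median of 0.12. Leaving out Dox 1, the Dox library farthest from its group, raised the shares of all genes called to 14.3% higher and 11.3% lower.

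The members with the largest called change in Tet-MIST1 were ALDH1L2 and ATF3. ALDH1L2, which oxidizes folate-bound carbon units in mitochondria, had 14.1, 13.5, 14.6 and 13.1 CPM in Control and 18.5, 33.6, 29.0 and 28.1 CPM in Dox. Dox 1 was the lowest of its group and still above all Control libraries, and the log2 fold change was 0.98 ± 0.14 (edgeR, FDR 0.000786). ATF3 had 4.05, 4.68, 3.99 and 4.78 CPM in Control and 8.31, 7.02, 6.69 and 7.69 CPM in Dox, with no overlap, and rose by 0.76 ± 0.094 (FDR 0.000249). NUPR1, a small stress-induced chromatin protein, had 11.5, 13.0, 13.0 and 15.7 CPM in Control and 20.9, 26.8, 18.2 and 16.9 CPM in Dox. The nearest libraries of the 2 groups were close, at 15.7 and 16.9 CPM, and the change was 0.64 ± 0.13 (FDR 0.00736). Without Dox 1 it was also 0.64, at an FDR of 0.0501.

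The proline synthesis genes were raised with little spread between libraries. ALDH18A1 had 108, 106, 109 and 105 CPM in Control and 145, 147, 149 and 146 CPM in Dox, and rose by 0.45 ± 0.038 (FDR 1.7e-05, edgeR). PYCR1, which makes the last step to proline, had 186, 185, 189 and 195 CPM in Control and 273, 269, 247 and 286 CPM in Dox, and rose by 0.51 ± 0.049 (FDR 4.2e-05). Both genes were called in each of the 8 fits that left out a library. SLC3A2 had 98.3, 95.8, 95.1 and 102 CPM in Control and 135, 113, 113 and 119 CPM in Dox, without overlap, and rose by 0.30 ± 0.060 (FDR 0.00601). Its light chain partner SLC7A5 was at -0.02 ± 0.047 (FDR 0.768).

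The other called members of Tet-MIST1 changed by less. DDIT4 had 180, 181, 196 and 192 CPM in Control and 239, 262, 216 and 199 CPM in Dox, and rose by 0.29 ± 0.074 (FDR 0.0181). Its call was lost without Control 1 (0.27, FDR 0.0632) and without Control 2 (0.28, FDR 0.0559). EPRS rose by 0.21 ± 0.045 (FDR 0.00797). MARS rose by 0.18 ± 0.048 (FDR 0.0224) but was called in only 3 of the 8 fits that left out a library: the FDR was 0.0757, 0.0631 and 0.0721 without Control 1, 2 or 3 and 0.0548 and 0.0651 without Dox 3 or 4. SESN2, a leucine-sensing inhibitor of mTORC1, fell from 35.8 ± 1.5 to 29.8 ± 2.14 CPM (SD, n = 4), a change of -0.26 ± 0.059 (FDR 0.0106). The ends of MARS and DDIT3 overlap on opposite strands (hg19, chr12:57881736-57910438 and chr12:57910371-57914300), and the use of strand in counting was not stated, so a small part of their reads could belong to either gene.

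ATF4, TRIB3, CHAC1, ASNS and DDIT3 were not shown to differ in Tet-MIST1. ATF4 had 172, 188, 182 and 203 CPM in Control and 204, 185, 180 and 183 CPM in Dox, a change of 0.01 ± 0.058 (FDR 0.904). TRIB3 had 49.1, 49.5, 50.7 and 54.9 CPM against 54.4, 53.4, 48.8 and 52.7 CPM (0.04 ± 0.053, FDR 0.657). CHAC1 had 19.5, 21.5, 22.9 and 24.5 CPM against 21.9, 25.3, 22.5 and 22.5 CPM (0.06 ± 0.074, FDR 0.567). The groups of all 3 genes overlapped widely. ASNS had 147, 158, 154 and 171 CPM against 178, 162, 175 and 164 CPM (0.11 ± 0.054, FDR 0.161), and its groups overlapped too. DDIT3 had 37.5, 43.0, 40.3 and 46.6 CPM against 53.1, 45.9, 46.6 and 47.6 CPM, a change of 0.21 ± 0.071 at an FDR of 0.057. It lay closest to the threshold of these genes and passed it with DESeq2 (FDR 0.0394) and without Control 4 (0.0326), Dox 1 (0.0431) or Dox 2 (0.0416).

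**Figure D3:**
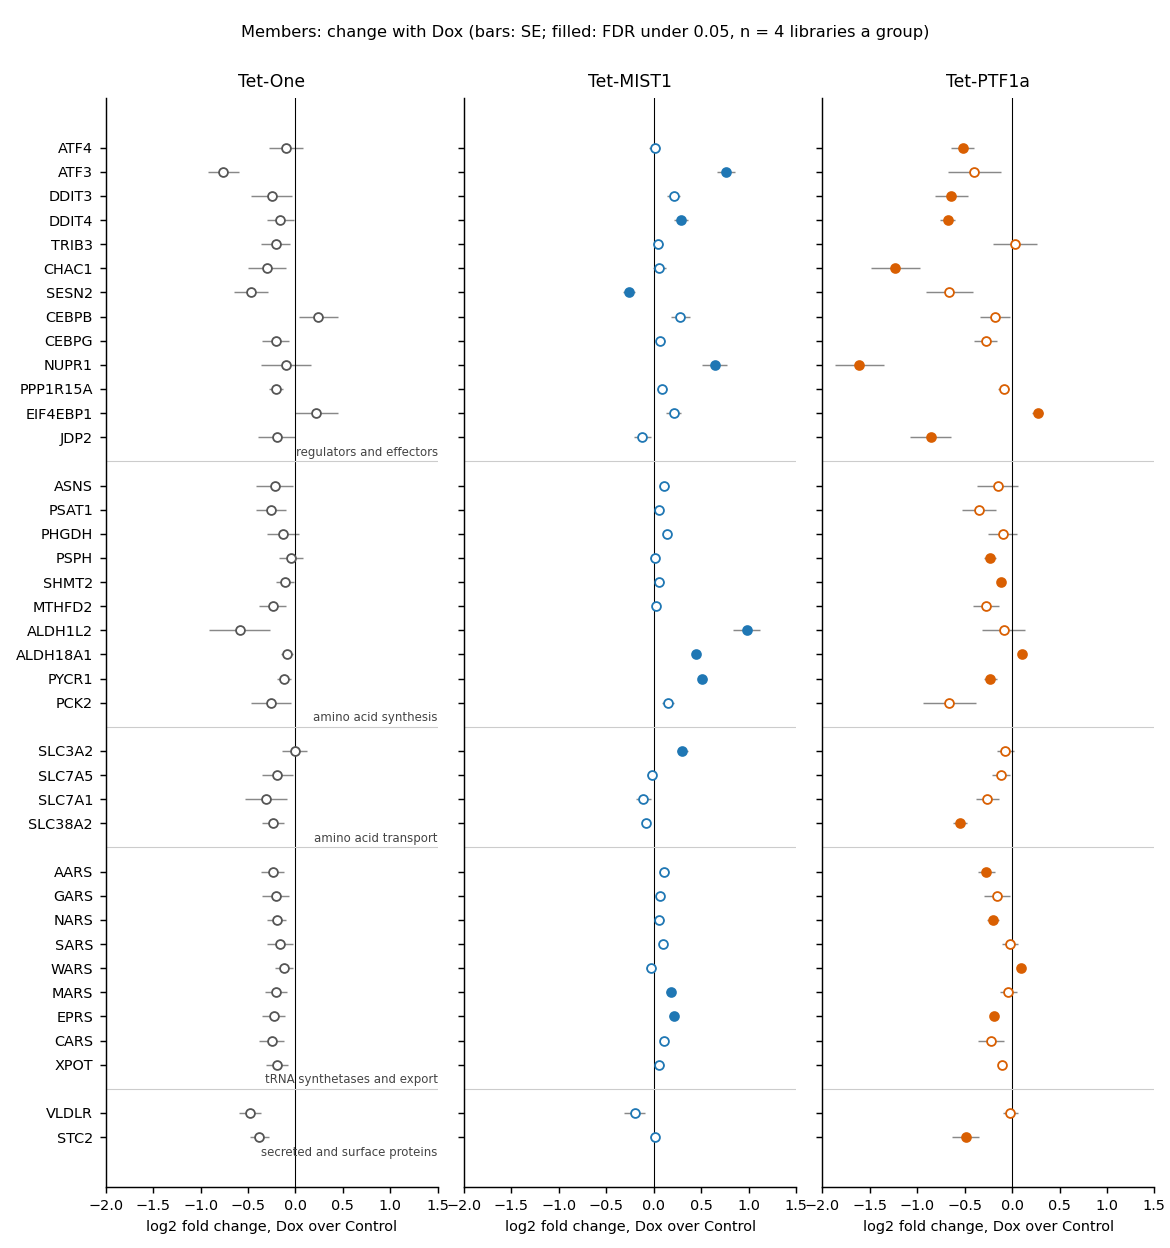
Log2 fold change of Dox over Control (x axis) for the 38 members (y axis, grouped by role) in the 3 lines, with SE bars and filled points for FDR under 0.05 by edgeR. No point is filled in Tet-One, 10 are filled in Tet-MIST1 with SESN2 alone on the lower side, and 17 are filled in Tet-PTF1a, 14 of them on the lower side.

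In Tet-PTF1a cells ATF4 and several of its regulators and targets were lower with Dox than without. The median member change was the same as in Tet-One, and of the members lower in Tet-PTF1a only NUPR1 and DDIT4 were shown to differ from the response of the empty line (given below). In Tet-PTF1a, 14 of 38 members were called lower and 3 higher, against 24.4% and 23.8% of the 14053 genes tested (48.2% in either direction). The fitted change was below 0 in 34 of 38 members, with a median of -0.21, where that of all genes was 0.00. The groups did not overlap in 22 members, 21 of them with lower Dox libraries. Over all genes these shares were 42.3% in either direction and 21.4% with lower Dox libraries. The lower members were NUPR1, CHAC1, JDP2, DDIT4, DDIT3 and ATF4 among 13 regulators, PSPH, PYCR1 and SHMT2 among 10 amino acid synthesis genes, SLC38A2 among 4 transporters, AARS, NARS and EPRS among 9 genes of tRNA synthetases and export, and STC2. The higher members were EIF4EBP1 (0.27 ± 0.059), ALDH18A1 (0.10 ± 0.029) and the tryptophanyl-tRNA synthetase WARS (0.09 ± 0.029). The groups of EIF4EBP1 and WARS overlapped, and the call of WARS was lost without Control 3 (FDR 0.0554) or Dox 2 (FDR 0.0666). With all libraries the median change was -0.52 for regulators, -0.19 for amino acid synthesis, -0.19 for transport and -0.16 for tRNA synthetases and export. Without Control 1, each of these roles held members above 0. The regulators then ran from -1.34 (NUPR1) to 0.33 (TRIB3) and amino acid synthesis from -0.33 (PCK2) to 0.20 (ALDH1L2). Transport ran from -0.47 (SLC38A2) to 0.03 (SLC3A2) and tRNA synthetases and export from -0.18 (AARS) to 0.11 (WARS).

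Control 1 of Tet-PTF1a, the library with raised members described above, moved many of these values. Without it, 20 members were called lower and 7 higher, against 23.4% and 22.5% of all genes (46% in either direction), 27 of 38 were below 0 and the median was -0.09. Of the 17 members called with all libraries, 16 were called in the same direction without Control 1, SHMT2 was lost (-0.06, FDR 0.13) and 11 members were gained. The gained members lower in Dox included SESN2 (-0.36), PCK2 (-0.33), PSAT1 (-0.15), CEBPG (-0.14) and SLC7A1 (-0.13). The gained members higher in Dox were TRIB3 (0.33), ALDH1L2 (0.20), ASNS (0.11) and SARS (0.07). Leaving out a Dox library instead reduced the members called lower to 9 of 38 without Dox 1, 2 or 4, against 22.9%, 22.8% and 23.7% of all genes, and to 7 of 38 without Dox 3, against 22.9%. In none of these 4 fits was the share of members called lower clearly above that of all genes. The 14 members called lower with all libraries stayed below 0 without Control 1, while its absence reduced the size of their change. ASNS, ALDH1L2, SARS, PHGDH, SLC3A2, MARS and VLDLR, not called with all libraries, turned from below to above 0. Control 1 was singled out by the values of these same members. The FDRs without it therefore are not a separate test, and they reflect the spread between cultures of 1 clone.

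The largest falls in Tet-PTF1a were those of NUPR1 and CHAC1. NUPR1 had 20.7, 12.6, 13.1 and 12.4 CPM in Control and 4.54, 5.61, 4.64 and 5.06 CPM in Dox. Every Dox library was below every Control library, and the log2 fold change was -1.61 ± 0.26 (edgeR, FDR 0.00216), or -1.34 ± 0.086 without Control 1 (FDR 4.77e-22). CHAC1 had 28.8, 16.5, 16.8 and 18.2 CPM in Control and 7.47, 9.66, 7.88 and 9.90 CPM in Dox, and fell by 1.23 ± 0.26 on the log2 scale (FDR 0.00769), or by 0.96 ± 0.075 without Control 1 (FDR 4.33e-17). JDP2 had 20.7, 12.8, 12.5 and 13.3 CPM in Control and 8.44, 8.58, 7.47 and 9.14 CPM in Dox, with no overlap. Its change was -0.86 ± 0.22 (FDR 0.0188), and -0.61 ± 0.076 without Control 1 (FDR 3.68e-10). The call of JDP2 was lost only without Dox 3 (-0.81, FDR 0.052).

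ATF4 and the effectors DDIT3 and DDIT4 fell as well. ATF4 had 345, 254, 254 and 262 CPM in Control and 186, 190, 192 and 212 CPM in Dox. The lowest Control library was above the highest Dox library, and the change was -0.52 ± 0.12 (FDR 0.0123), or -0.39 ± 0.039 without Control 1 (FDR 2.16e-06). DDIT3 had 60.5, 44.1, 38.2 and 41.4 CPM in Control and 28.9, 31.3, 27.7 and 31.6 CPM in Dox, again with no overlap, and changed by -0.64 ± 0.17 (FDR 0.0224), or -0.45 ± 0.048 without Control 1 (FDR 4.71e-12). Its FDR rose just above the threshold without any 1 of the Dox libraries, to 0.0563, 0.0505, 0.0596 and 0.0502. DDIT4 had 217, 177, 182 and 184 CPM in Control and 118, 124, 116 and 117 CPM in Dox, and fell by 0.68 ± 0.076 (FDR 0.000321), or by 0.61 ± 0.028 without Control 1.

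SLC38A2, the member with the highest median level, also fell. It had 1233, 1051, 997 and 1016 CPM in Control and 725, 738, 749 and 734 CPM in Dox, well apart, and changed by -0.55 ± 0.072 (FDR 0.000813), or -0.47 ± 0.021 without Control 1. STC2 changed by -0.49 ± 0.15 (FDR 0.0322). AARS (-0.27), PSPH (-0.23), PYCR1 (-0.23), NARS (-0.20), EPRS (-0.19) and SHMT2 (-0.12) changed by less. The calls of STC2, PYCR1, AARS and NARS were lost without any 1 of the Dox libraries, at FDRs of 0.0588 to 0.0802, 0.0526 to 0.0774, 0.0789 to 0.0955 and 0.0881 to 0.107. That of AARS was also lost without Control 2 (0.0509) or Control 3 (0.0542), that of NARS without Control 2 (0.0825) and that of PSPH without Dox 3 (0.0503).

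TRIB3 and ASNS were not called lower in Tet-PTF1a. TRIB3 had 57.0, 33.3, 28.6 and 34.1 CPM in Control and 39.1, 41.0, 39.9 and 41.7 CPM in Dox. Control 1 was above all Dox libraries and the other 3 Control libraries were below all of them. The change was 0.03 ± 0.24 with all libraries (FDR 0.944) and 0.33 ± 0.047 without Control 1 (FDR 2.58e-08). ASNS had 228, 134, 129 and 132 CPM in Control and 135, 142, 140 and 152 CPM in Dox, with the same order of libraries. Its change was -0.15 ± 0.22 with all libraries (FDR 0.614) and 0.11 ± 0.030 without Control 1 (FDR 0.00124), so that both its sign and its call rested on that library.

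**Figure D4:**
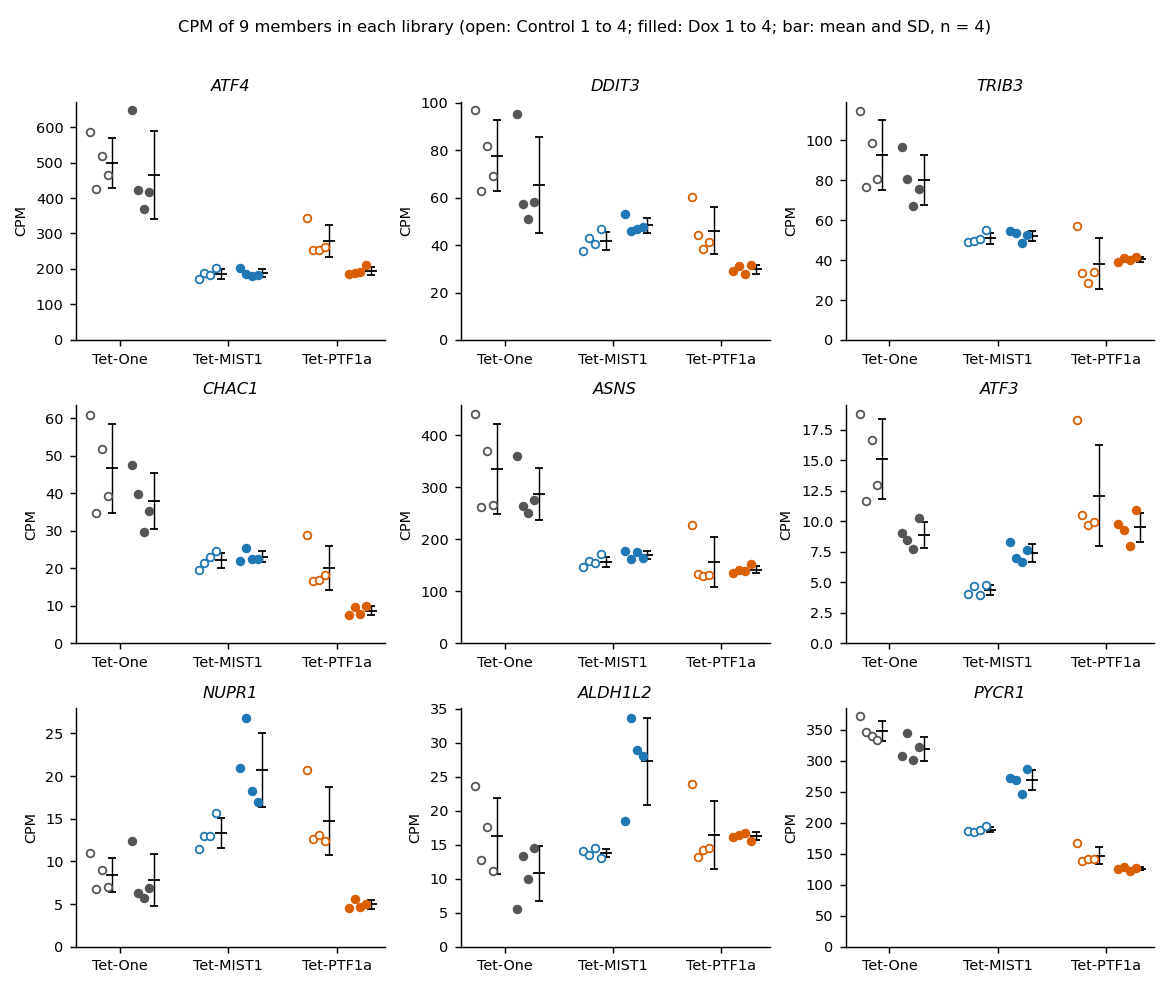
CPM of 9 members in each library of the 3 lines (open points Control 1 to 4, filled points Dox 1 to 4, from left to right, with mean and SD, n = 4). In Tet-PTF1a the Dox points of ATF4, DDIT3, CHAC1 and NUPR1 lie below all Control points, and the first Control point lies above the other Control points for each of the 9 genes.

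The responses of the lines were then compared directly, as the interaction of line and Dox. Between Tet-PTF1a and Tet-MIST1, which share no library, the response of 21 members was lower in Tet-PTF1a and that of 0 was higher, against 18.6% and 17.8% of the 13519 genes tested. The difference was below 0 in 34 of 38 members, with a median of -0.34, where that of all genes was 0.00. The largest differences were those of NUPR1 (-2.22 ± 0.26, FDR 3.06e-06 by edgeR), CHAC1 (-1.27 ± 0.21, FDR 0.000159), ATF3 (-1.14 ± 0.26, FDR 0.00224), ALDH1L2 (-1.03 ± 0.25, FDR 0.00338) and DDIT4 (-0.96 ± 0.10, FDR 3.75e-07). NUPR1, DDIT4, PYCR1 and EPRS were called in both lines, higher in Tet-MIST1 and lower in Tet-PTF1a. The responses of ATF4 (-0.52 ± 0.12, FDR 0.0024) and DDIT3 (-0.83 ± 0.16, FDR 0.00056) also differed, and those of TRIB3 (0.03 ± 0.20, FDR 0.926) and ASNS (-0.24 ± 0.19, FDR 0.342) were not shown to. By role, 8 of 13 regulators, 6 of 10 amino acid synthesis genes, 2 of 4 transporters and 4 of 9 genes of tRNA synthetases and export were lower. Without Tet-PTF1a Control 1 there were 21 members lower and 1 higher, against 17.1% and 16.1% of all genes, and the median was -0.19.

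**Figure D5:**
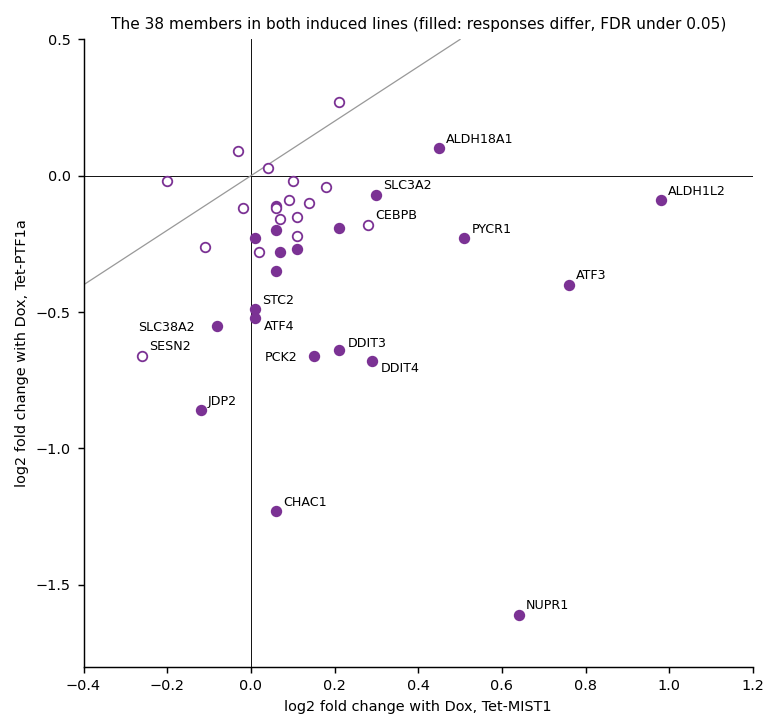
Log2 fold change with Dox of each member in Tet-MIST1 (x axis) and Tet-PTF1a (y axis), filled where the 2 responses differ at FDR under 0.05, with a grey line of equal values. The 21 filled members lie below the line, with NUPR1 farthest from it at 0.64 and -1.61.

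Compared with the empty line, the response of Tet-MIST1 was higher in 3 members, ATF3 (1.52 ± 0.20, FDR 0.000483), PYCR1 (0.63 ± 0.081, FDR 0.000476) and ALDH18A1 (0.53 ± 0.066, FDR 0.00034), and lower in 0, against 1.48% and 0.187% of the 13879 genes tested (1.66% in either direction). All 3 were called in each of the 16 fits that left out a library. The difference was above 0 in 37 of 38 members (median 0.28, where that of all genes was -0.03). The value of ALDH1L2, 1.57 ± 0.38, was the largest and had an FDR of 0.0512. Each difference holds the fitted values of both lines, for ATF3 0.76 in Tet-MIST1 and -0.76 in Tet-One, for PYCR1 0.51 and -0.12 and for ALDH18A1 0.45 and -0.09. Without Tet-One Dox 1, 15 members were higher and 0 lower, against 8.5% and 5.4% of all genes, and all 38 were above 0 (median 0.36). With Tet-One Control 1 left out as well, 12 were higher, against 6.2%, and the median was 0.23. Without Tet-One Control 1 alone, 3 were higher, against 1.07% (1.17% in either direction), with a median of 0.17, and without Tet-One Dox 4, 5 were higher, against 1.34%.

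The response of Tet-PTF1a differed from that of Tet-One in fewer members. It was lower for NUPR1 (-1.48 ± 0.35, FDR 0.00924) and DDIT4 (-0.51 ± 0.16, FDR 0.0426) and higher for VLDLR (0.48 ± 0.15, FDR 0.0429), against 7.32% of the 13519 genes lower and 5.52% higher. The difference was above 0 in 19 members and below 0 in 19, with a median of 0.00. NUPR1 was called in all 16 fits that left out a library, DDIT4 in 4 and VLDLR in 5. For ATF4 the difference was -0.42 ± 0.22 (FDR 0.263), and -0.21 without Tet-One Dox 1 (FDR 0.423). For CHAC1 it was -0.91 ± 0.30 (FDR 0.0582). Without Tet-One Dox 1 there were 3 members higher, against 14.6% of all genes (EIF4EBP1, ALDH18A1 and VLDLR), and 2 lower, against 16.1% (NUPR1 and SLC38A2). Without Tet-One Control 1 there were 0 higher and 3 lower, against 4.8% and 6.01%, and without Tet-PTF1a Control 1 there were 2 higher and 1 lower, against 4.76% and 6.08%. The comparisons with Tet-One use the same 8 Tet-One libraries, so that they are not independent of each other.

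Genes around the members were followed as fixed lists, with the counts to be read against the same 11.9% higher and 8.77% lower of all genes in Tet-MIST1 and 23.8% and 24.4% in Tet-PTF1a. Among 18 listed other ATF4 targets, 7 were higher and 0 lower in Tet-MIST1, led by CTH (0.49), the neutral amino acid transporter SLC1A4 (0.41), the stress cytokine GDF15 (0.35) and the ER degradation factor HERPUD1 (0.26). In Tet-PTF1a 5 were higher and 6 lower, led by the glycine transporter SLC6A9 (-0.87), the arginine synthesis gene ASS1 (0.59), GDF15 (0.52) and the autophagy receptor SQSTM1 (-0.51). GDF15 thus rose in both induced lines, while the median of the list was 0.03 in Tet-MIST1 and -0.22 in Tet-PTF1a. Of the 9 listed eIF2 kinases and relays, 2 were higher and 2 lower in Tet-MIST1, and 3 and 3 in Tet-PTF1a. EIF2AK3 (PERK), the kinase that senses unfolded protein in the ER, rose in both, by 0.36 ± 0.049 in Tet-MIST1 (FDR 0.000516 by edgeR) and by 0.37 ± 0.044 in Tet-PTF1a (FDR 7.72e-10). EIF2AK4 (GCN2), which senses uncharged tRNA, changed by -0.25 in Tet-MIST1 and 0.09 in Tet-PTF1a.

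Of the 8 subunits of eIF2 and eIF2B, 2 were higher and 0 lower in Tet-MIST1 (EIF2B4 at 0.49 and EIF2S1 at 0.19), and 4 and 0 in Tet-PTF1a, with EIF2B2 the largest at 0.15. The 15 cytosolic synthetase genes that are not members gave 2 higher and 0 lower in Tet-MIST1, where HARS, the histidyl-tRNA synthetase, rose by 0.58 ± 0.045, and 4 and 3 in Tet-PTF1a. The 17 mitochondrial synthetase genes gave 1 and 1 in Tet-MIST1 and 3 and 5 in Tet-PTF1a. In Tet-One 0 genes of any of these lists were called, and the medians of the other ATF4 targets and of the kinases and relays were -0.22 and -0.09. The summed CPM of the 7 ductal and epithelial genes was 3462 to 3633 in Tet-PTF1a Control and 1755 to 1810 in Tet-PTF1a Dox, 1777 to 1911 and 1745 to 2215 in Tet-MIST1, and 4965 to 5858 and 5303 to 7927 in Tet-One. The sum is carried by the keratins: in Tet-PTF1a KRT8 (-1.30), KRT18 (-1.10), KRT19 (-1.07) and EPCAM (-0.22) fell, while KRT7 (1.69), CDH1 (0.83) and SOX9 (0.30) rose. Their part in the changes of the members was not tested. In bulk RNA, fewer cells that express a gene and less RNA per cell cannot be told apart.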

How the data were processed

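RNA of 24 libraries, 4 Control and 4 Dox of each of Tet-One, Tet-MIST1 and Tet-PTF1a, was sequenced, and the submitters' processing notes name TopHat, HTSeq, DESeq, edgeR and hg19. The tables deposited by the authors hold raw read counts per gene, which were used here, beside scaled CPM and the authors' own log2 fold changes, p-values and FDRs, which were not used. The counting options and the use of strand were not given in the sources used here. The replicates were taken as the biological replicates the study describes. No 2 libraries of a group agreed within sampling noise in the 36 pairs compared.

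The counts were tested by line in edgeR 4.0.16 (R 4.3.3) with TMM scaling, genes above 0.5 CPM in at least 4 libraries, the robust quasi-likelihood test and Benjamini-Hochberg adjustment over all genes, with a threshold of 0.05. Differences between lines were tested as the interaction of line and Dox in the 16 libraries concerned. CPM were computed from the counts with TMM scaling within a line, and RPKM with TMM scaling over all 24 libraries and the listed exon length. The procedure was tested on simulated data with less spread between replicates than the fits with all Tet-One libraries had, and without a library that stood apart. The members and gene lists were chosen with earlier results of these data known.

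Values are given library by library for ATF4, DDIT3, TRIB3, CHAC1 and ASNS in every line. The same was done for the 6 called members with the largest change and no overlap of the groups in Tet-MIST1 and Tet-PTF1a, and for at most 6 members, by p, with an unadjusted p under 0.05 in Tet-One without Dox 1. Of each other list at most 4 called genes with the largest change are named. Members named beyond this were chosen after their values were seen. Alternatives were DESeq2 1.42.0, other scalings and filters, a log2 limit of 1, a replicate block, removal of exon length and GC trends, 1 fit of all 24 libraries and leaving out each library. The fit of all libraries without Tet-One Dox 1, and that without Control 1 and Dox 1 of Tet-One, were added after seeing the data. Precision is limited by counting at depths of 17210989 to 43018494 counts a library and by 4 libraries a group.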

Additional observations from a re-analysis of the deposited data

Results flagged for a closer look

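A library stood far from the other 3 of its group in 9 of the 62 gene and group combinations tested among the members given library by library, where chance gives about 1 in 20. The combinations share libraries, and the genes were partly chosen for large changes or a low p. They are not independent, so this rate is only a rough guide. In Control 1 of Tet-PTF1a the flagged genes were NUPR1 at 20.7 CPM, CHAC1 at 28.8, JDP2 at 20.7, ATF4 at 345 and ASNS at 228, each above the other Control libraries. In Control 1 of Tet-One they were PPP1R15A at 33.8 CPM and SHMT2 at 149, and in Dox 1 of Tet-One DDIT3 at 95.4. In Dox 2 of Tet-MIST1 it was CHAC1 at 25.3 CPM.

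The Dox responses of 2 lines differed, by the test of the difference itself, in the following members, given as differences of log2 fold changes. Between Tet-MIST1 and Tet-One they were ATF3 (1.52), ALDH18A1 (0.53) and PYCR1 (0.63). Between Tet-PTF1a and Tet-One they were DDIT4 (-0.51), NUPR1 (-1.48) and VLDLR (0.48). Between Tet-PTF1a and Tet-MIST1 they were ATF4 (-0.52), ATF3 (-1.14), DDIT3 (-0.83), DDIT4 (-0.96), CHAC1 (-1.27), CEBPG (-0.34), NUPR1 (-2.22), JDP2 (-0.71), PSAT1 (-0.39), PSPH (-0.22), ALDH1L2 (-1.03), ALDH18A1 (-0.34), PYCR1 (-0.72), PCK2 (-0.77), SLC3A2 (-0.35), SLC38A2 (-0.45), AARS (-0.37), NARS (-0.25), EPRS (-0.39), XPOT (-0.16) and STC2 (-0.47).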

How the results depend on the processing

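Counts of called members follow as higher and lower, with the share of all genes called the same way in parentheses. Leaving out each library gave 0 to 0 (0%) and 0 to 0 (0 to 0.00746%) in Tet-One. It gave 7 to 12 (7.07 to 15%) and 1 to 1 (3.49 to 12.7%) in Tet-MIST1. In Tet-PTF1a it gave 2 to 7 (21 to 22.7%) and 7 to 20 (22.8 to 23.7%). For the differences in response it gave 3 to 15 (0.973 to 8.5%) and 0 to 0 (0.0577 to 5.4%) for Tet-MIST1 against Tet-One. For Tet-PTF1a against Tet-One it gave 0 to 3 (4.47 to 14.6%) and 1 to 3 (5.79 to 16.1%). For Tet-PTF1a against Tet-MIST1 it gave 0 to 1 (14 to 20.2%) and 18 to 25 (16.8 to 20.7%). A log2 limit of at least 1 by construction removes smaller changes. With this limit 0 (0.448%) and 0 (0%) remained in Tet-MIST1 and 0 (2.16%) and 2 (1.63%) in Tet-PTF1a. Of the differences, 1 higher (0.339%) remained for Tet-MIST1 against Tet-One and 0 (1.44%) and 1 (1.66%) for Tet-PTF1a against Tet-One. For Tet-PTF1a against Tet-MIST1, 4 lower (1.78%) remained. With all 24 libraries in 1 fit there were 5 (7.87%) and 0 (4.74%) in Tet-MIST1, 0 higher (10.7%) in Tet-PTF1a, 5 higher (3.01%) for Tet-MIST1 against Tet-One, 2 higher (6.99%) for Tet-PTF1a against Tet-One and 12 lower (11.7%) for Tet-PTF1a against Tet-MIST1. Without Tet-One Dox 1 in that fit there were 0 lower (16.8%) in Tet-MIST1, and 14 (12.8%) and 3 (10.5%) higher for Tet-MIST1 and Tet-PTF1a against Tet-One. For the same 2 comparisons, DESeq2 gave 6 (2.57%) and 2 (6.47%) higher, removal of length and GC trends 8 (3.93%) and 3 (8.82%), and that with the replicate block 5 (2.39%) and 2 (6.88%), so the calls over all genes rose as well. Both trend removals gave 1 higher for Tet-PTF1a against Tet-MIST1 (19.8% and, with the block, 18.3%). Without Control 1 and Dox 1 of Tet-One, 12 (6.2%) were higher for Tet-MIST1 against Tet-One. Library size without TMM gave 1 lower (5.94%) for Tet-PTF1a against Tet-One. Over all genes of Tet-PTF1a it called 4392 higher and 2698 lower, against 3344 and 3431 with TMM, and among the members 3 and 11. The cause of these shifts was not tested.

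Same-numbered Control and Dox libraries correlated by -0.244 to 0.18, so the numbers were not taken to pair the samples. The replicate block gave 0 (0%) and 0 (0%) in Tet-One and 7 (7.06%) and 1 (3.68%) in Tet-MIST1. In Tet-PTF1a it gave 3 (23.4%) and 11 (24.3%). For the differences in response it gave 3 (0.591%) and 0 (0.00721%) for Tet-MIST1 against Tet-One. It gave 0 (4.01%) and 1 (5.08%) for Tet-PTF1a against Tet-One. For Tet-PTF1a against Tet-MIST1 it gave 0 (14.8%) and 20 (16%).

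Among the members given library by library, signs turned for genes that were not called with all libraries. SLC3A2 in Tet-One was at 0.03 without Control 1 and at 0.01, 0.05 and 0.04 without Dox 2, 3 or 4, and at -0.17 without Dox 1. ATF4 in Tet-MIST1 was at -0.03 without Control 1 or Dox 1, -0.04 with length and GC trends removed and -0.03 with the block added. CHAC1 was at -0.04 in both of the latter. In Tet-PTF1a, TRIB3 was at -0.03, -0.08 and -0.05 without Control 2, 3 or 4 and at 0.33 without Control 1. ASNS was at 0.11 without Control 1 and at -0.24 to -0.13 without any other library of the line. Of the other members of that line, ALDH1L2 (0.20), PHGDH (0.08), SARS (0.07), MARS (0.06), VLDLR (0.06) and SLC3A2 (0.03) also turned above 0 without Control 1.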
